A study of Homo sapiens with 12 samples.

Results

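The 8 genes described here handle decitabine inside a cell: SLC29A1 and SLC29A2 (uptake), DCK, CMPK1 and NME1 (activation), and CDA, DCTD and SAMHD1 (inactivation). They were chosen by name, as genes of this route, and every array probe annotated to one of these symbols was taken. The array carried 13 such probes, among 30113 probes with 1 gene symbol, and 10 of them, covering 6 of the 8 genes, were detected well enough to be tested. SLC29A1 and SAMHD1 were each represented by 1 probe that was undetected on all 12 arrays.

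RNA was measured on 1-colour Illumina bead arrays from HCC827, an established human lung adenocarcinoma line driven by mutant EGFR, in 2 forms. The labels give the HCC827-Del cells the EGFR allele L747-S752 and the HCC827-Del-TM cells the alleles L747-S752/T790M, so both forms carry the same deletion. Each form received DMSO, the solvent, or decitabine (2.5 µM) together with vorinostat (1 µM) for 72 h, with 3 biological replicates in each of the 4 groups. No group received either drug alone, so the effects of decitabine and vorinostat cannot be told apart, and the labels do not say whether each line is a single clone.

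Decitabine is an analogue of deoxycytidine that acts only after it enters the cell through nucleoside transporters and is phosphorylated. DCK adds the first phosphate, CMPK1 the next and nucleoside diphosphate kinases such as NME1 the last, and the triphosphate is built into DNA, where it traps DNA methyltransferases. CDA deaminates the drug, DCTD deaminates its monophosphate and SAMHD1 hydrolyses its triphosphate, so that these enzymes remove active drug. Vorinostat inhibits histone deacetylases.

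DNA methyltransferases act mainly on cytosines that are followed by guanine, and the 250 bases upstream of the annotated start are printed for 3 members to show how differently they are built: CDA and DCK, which moved in opposite directions with treatment in HCC827-Del-TM, and SAMHD1, which was undetected. The sequences are RefSeq's, on the strand of the gene and build GRCh38.p14, at chr1:20588847-20589096 (plus strand) for CDA, chr4:70993399-70993648 (plus strand) for DCK and chr20:36951709-36951958 (minus strand) for SAMHD1. Capitals mark each CG, a motif that reads the same on both strands and cannot overlap itself.
CDA: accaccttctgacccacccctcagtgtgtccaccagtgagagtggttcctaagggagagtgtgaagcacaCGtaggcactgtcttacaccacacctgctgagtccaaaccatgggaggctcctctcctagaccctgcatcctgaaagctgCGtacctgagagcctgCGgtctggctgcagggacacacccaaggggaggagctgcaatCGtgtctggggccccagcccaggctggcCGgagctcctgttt
DCK: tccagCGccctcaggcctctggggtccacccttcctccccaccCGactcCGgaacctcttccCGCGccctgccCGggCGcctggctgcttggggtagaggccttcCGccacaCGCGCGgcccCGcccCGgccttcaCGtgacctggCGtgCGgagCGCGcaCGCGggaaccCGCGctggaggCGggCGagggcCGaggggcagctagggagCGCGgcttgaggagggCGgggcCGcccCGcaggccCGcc
SAMHD1: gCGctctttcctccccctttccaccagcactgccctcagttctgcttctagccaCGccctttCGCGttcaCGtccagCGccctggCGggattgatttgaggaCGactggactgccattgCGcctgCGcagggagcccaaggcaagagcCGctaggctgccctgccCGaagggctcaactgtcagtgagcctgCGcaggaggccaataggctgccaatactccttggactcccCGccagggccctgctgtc
The CDA window held 5 CG, more than in 34.3% of the 35116 RefSeq promoter windows of that length, the SAMHD1 window 14 (more than in 55.2%) and the DCK window 31 (more than in 89.1%). At least 1 CG was present in 93.9% of all windows, with a median of 11. RefSeq windows were at hand for 7 of the 8 members. The CMPK1 and NME1 windows held 16 CG each, the 2 DCTD windows 40 and 23, and the 2 SLC29A1 windows 19 and 27. DNA methylation was not measured in these samples, so the counts describe sequence only.

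Median deposited signal per array ranged from 95.4 to 104, and 16251 to 19671 probes per array were detected, which here means a detection p-value below 0.01. The 3 arrays of treated HCC827-Del had the most detected probes, 18617 to 19671, against 16251 to 18055 on the other 9, and the part of this in the results below was not tested. Of 11 epithelial and lung markers, 10 were detected on all arrays, and the surfactant gene SFTPB was undetected in both treated groups. Their summed intensity was 36236 to 38032 in untreated and 29382 to 30584 in treated HCC827-Del, and 34701 to 35299 in untreated and 36713 to 37631 in treated HCC827-Del-TM. Of 13 blood, stromal and endothelial markers with a probe, 5 were detected on all arrays, and PTPRC, HBB, CDH5, COL3A1 and DCN on none. The sum over that list was higher after treatment, going from 2065 to 2166 up to 2848 to 3128 in HCC827-Del and from 2349 to 2470 up to 3952 to 4166 in HCC827-Del-TM, with the mesenchymal filament gene VIM at a mean intensity of 289 in untreated and 1278 in treated HCC827-Del-TM. Of the 5 detected on all arrays, CD68, CD14, ACTA2 and VIM had higher means after treatment in both lines. COL1A1 went the other way, from 49.4 to 36.6 in HCC827-Del and from 51.6 to 46.7 in HCC827-Del-TM. The part of these markers in the results was not tested. In RNA from whole cultures, a lower share of cells of one state and less RNA per cell cannot be told apart.

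SLC29A1 encodes the widely expressed equilibrative transporter through which decitabine is known to enter many cells. Its probe, ILMN_2279377, gave deposited signals of 87.2 to 106 with detection p-values of 0.0429 to 0.970, and the lowest signal of any detected probe was 105.6 to 110.3, depending on the array. SAMHD1 probe ILMN_1721026 gave 83.8 to 94.0 with detection p-values of 0.629 to 0.948. The groups overlapped for both probes and no fold was computed. DCK had a second probe, ILMN_2117240, at 86.0 to 101 and detection p-values of 0.116 to 0.775, although the other DCK probe, annotated to the same transcript, was detected on every array. An undetected probe therefore did not show an absent transcript for DCK, and the same limit holds for SLC29A1 and SAMHD1.

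**Figure D1:**
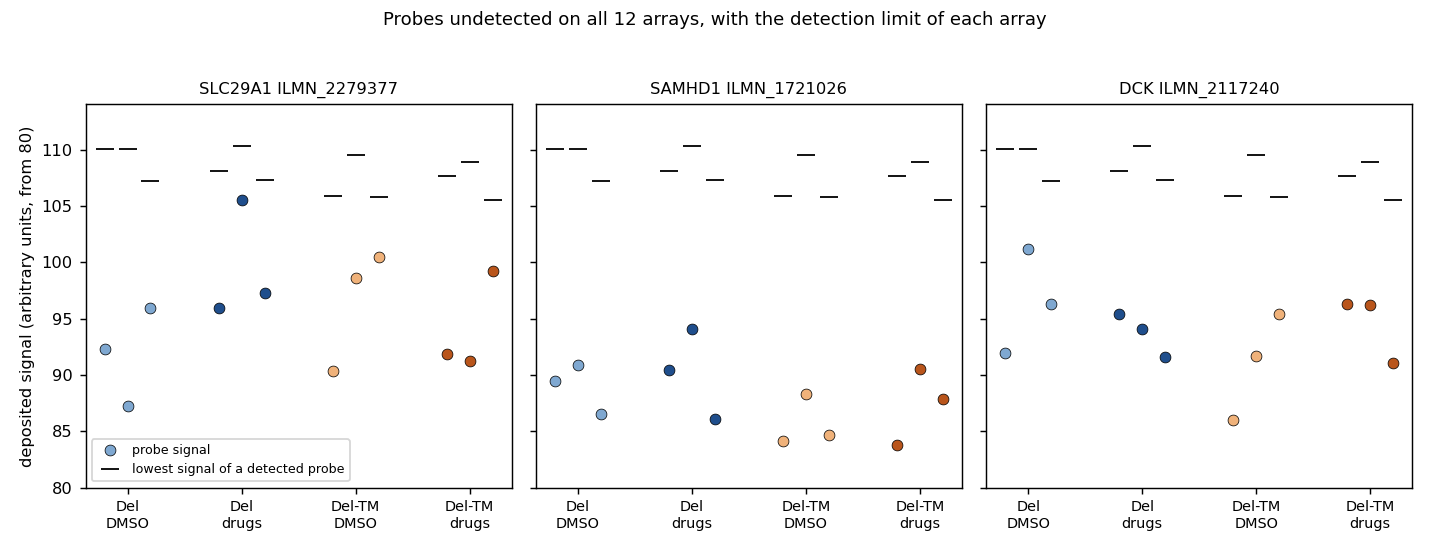
Deposited signal (arbitrary units, axis from 80) of the 3 member probes undetected on all 12 arrays, by group (Del and Del-TM, with DMSO or with both drugs), 1 point per array. The dashes give each array's lowest signal of a detected probe, 105.6 to 110.3, and all points lie below their array's dash.

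SLC29A2, a second equilibrative nucleoside transporter, was the uptake gene that could be measured, and it fell with treatment in both lines. Its log2 intensities in HCC827-Del were 9.03, 9.15 and 9.08 with DMSO and 8.25, 8.18 and 8.28 with the drugs. In HCC827-Del-TM they were 8.92, 9.01 and 9.06 with DMSO and 8.50, 8.52 and 8.35 with the drugs. Treated and untreated arrays did not overlap in either line, and untreated lines overlapped with each other. The difference was −0.85 (SE 0.0761, adjusted p = 7.72e-07, limma with Benjamini-Hochberg adjustment over 15667 probes) in HCC827-Del, a 1.80-fold lower level. In HCC827-Del-TM it was −0.54 (limma adjusted p = 6.30e-05), 1.46-fold lower. The untreated lines differed by −0.09 (95% interval −0.25 to 0.07, limma adjusted p = 0.403), HCC827-Del-TM minus HCC827-Del.

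The fall was smaller in HCC827-Del-TM by 0.31 (SE 0.108, limma adjusted p = 0.0372). That difference of effects lost its call when any of 8 arrays was left out (replicates 2 and 3 of untreated and 1 and 2 of treated HCC827-Del, replicates 1 and 2 of untreated and of treated HCC827-Del-TM), with adjusted p between 0.0538 and 0.0884, and under median scaling (0.20, adjusted p = 0.383). Between the treated groups SLC29A2 was 0.22 higher in HCC827-Del-TM (limma adjusted p = 0.0248). That call was lost without treated HCC827-Del replicate 2 (0.19, adjusted p = 0.0815), treated HCC827-Del-TM replicate 1 (0.19, adjusted p = 0.0744) or 2 (0.18, adjusted p = 0.0877), and under median scaling (0.06, adjusted p = 0.706).

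DCK encodes deoxycytidine kinase, which carries out the first and rate-limiting phosphorylation of decitabine. It was higher in untreated HCC827-Del-TM than in untreated HCC827-Del, and it fell with treatment in HCC827-Del-TM. Its detected probe, ILMN_1651433, read 7.99, 7.88 and 7.78 in untreated and 7.85, 8.01 and 8.17 in treated HCC827-Del. It read 8.40, 8.43 and 8.57 in untreated and 7.76, 7.79 and 7.89 in treated HCC827-Del-TM. The 3 untreated HCC827-Del-TM arrays lay above all 9 others, which overlapped.

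Untreated HCC827-Del-TM exceeded untreated HCC827-Del by 0.59 (SE 0.0937, limma adjusted p = 0.00029), a level 1.5-fold higher. Treatment lowered DCK in HCC827-Del-TM by a log2 difference of −0.65 (95% interval −0.86 to −0.45, limma adjusted p = 7.39e-05), 1.57-fold. Both of these comparisons use the same 3 untreated HCC827-Del-TM arrays. In HCC827-Del the difference was 0.13 (95% interval −0.07 to 0.33, limma adjusted p = 0.264). The effects differed between lines by −0.79 (SE 0.132, limma adjusted p = 0.000392), a call that held in each alternative run at the 0.05 threshold. Between the treated groups DCK differed by −0.20 (95% interval −0.40 to 0.00, limma adjusted p = 0.0779), HCC827-Del-TM minus HCC827-Del, a value that depended on single arrays and on the scaling. It was −0.28 without treated HCC827-Del replicate 1 (adjusted p = 0.0230), −0.12 without replicate 3 of that group (adjusted p = 0.303) and −0.40 under median scaling (adjusted p = 0.0138). It was −0.15 without background correction (adjusted p = 0.0435) and −0.16 with the authors' deposited log2 values (adjusted p = 0.0406). These settings gave nearly equal values for the members, so they are not separate checks.

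**Figure D2:**
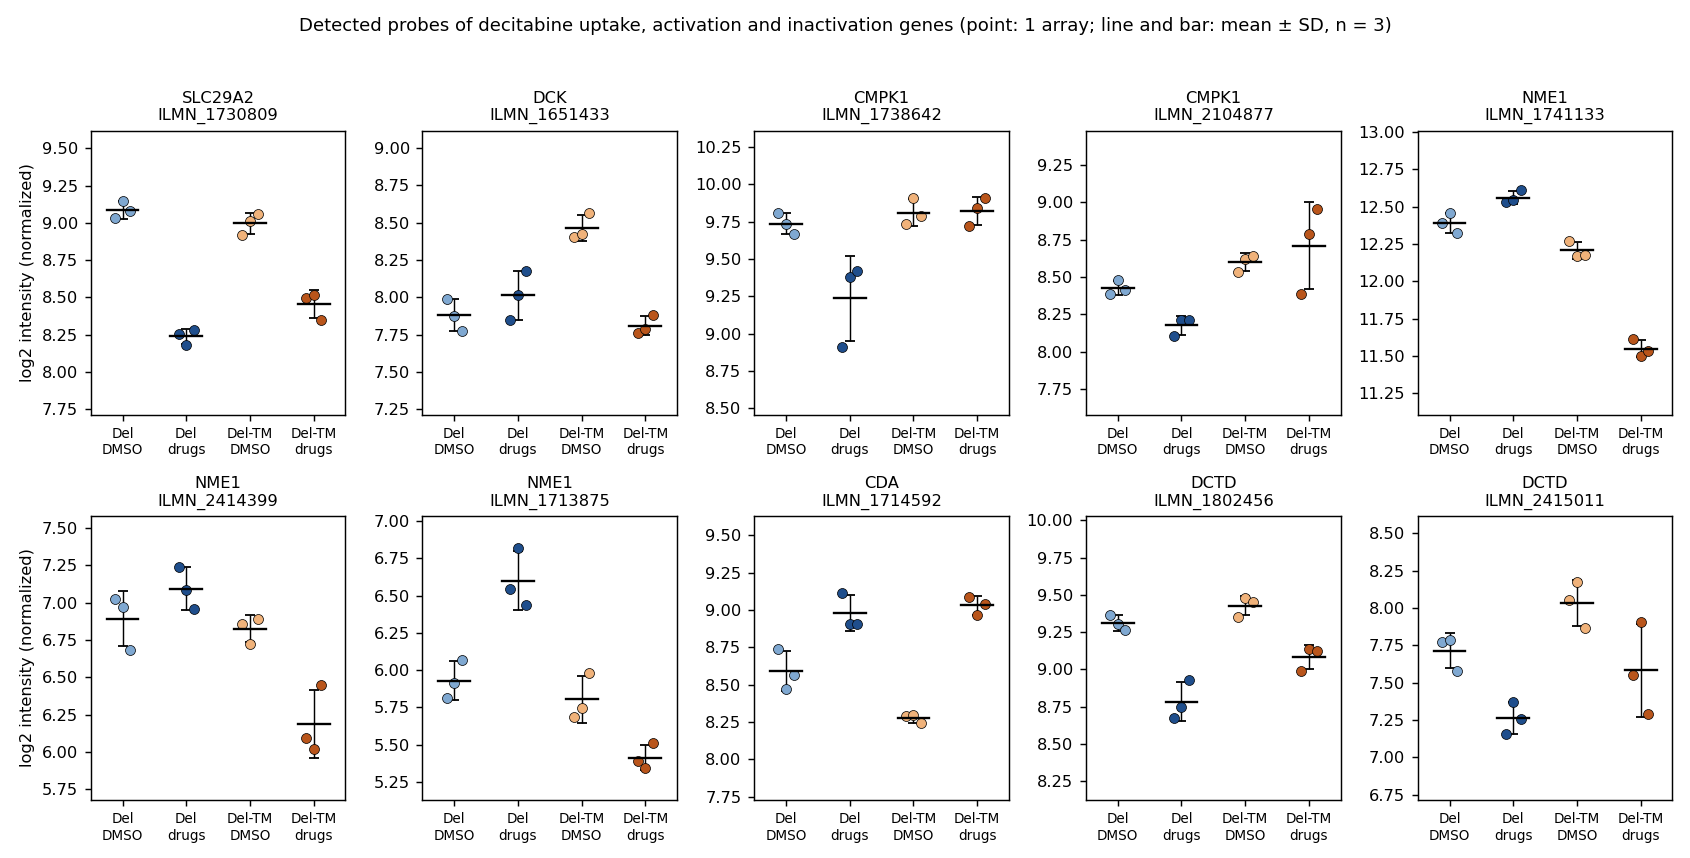
Normalized log2 intensity of the 10 detected member probes in the 4 groups (Del and Del-TM, DMSO or both drugs), with 1 point per array, the mean as a line and ± SD as a bar (n = 3); every panel spans the same number of log2 units. DCK is highest in untreated HCC827-Del-TM (8.40 to 8.57), CDA is lowest there (8.24 to 8.30), and SLC29A2 is lower on the treated arrays of both lines.

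CMPK1 encodes the UMP/CMP kinase that turns the drug's monophosphate into the diphosphate. Its brighter probe, ILMN_1738642, fell with treatment in HCC827-Del and did not pass the test in HCC827-Del-TM. The values in HCC827-Del were 9.81, 9.73 and 9.67 with DMSO and 8.91, 9.38 and 9.42 with the drugs, without overlap, replicate 1 of the treated group being the lowest. In HCC827-Del-TM they were 9.73, 9.91 and 9.79 with DMSO and 9.72, 9.84 and 9.91 with the drugs, which overlapped. The difference was −0.50 (SE 0.119, limma adjusted p = 0.00341) in HCC827-Del and 0.02 (95% interval −0.24 to 0.27, limma adjusted p = 0.930) in HCC827-Del-TM.

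The dimmer CMPK1 probe, ILMN_2104877, gave −0.25 (limma adjusted p = 0.0902) and 0.11 (adjusted p = 0.470), so it did not pass in either line. The value in HCC827-Del-TM depended on single arrays, while that in HCC827-Del kept its size. The HCC827-Del value passed under 5 alternatives. Among them were the fit of only the groups compared (−0.25, adjusted p = 0.0285) and the authors' deposited log2 values (−0.20, adjusted p = 0.0428). Without treated HCC827-Del-TM replicate 1 the values in HCC827-Del and HCC827-Del-TM were −0.25 (adjusted p = 0.0173) and 0.27 (adjusted p = 0.0238). Without replicate 3 of the same group the value in HCC827-Del-TM turned sign, to −0.01 (adjusted p = 0.956), and without replicate 2 it was 0.07 (adjusted p = 0.704). Between the treated groups both probes were higher in HCC827-Del-TM, by 0.59 (limma adjusted p = 0.000708) and 0.53 (adjusted p = 0.00116). The difference of effects was 0.51 for the brighter probe (SE 0.168, limma adjusted p = 0.0263) and 0.36 for the dimmer (adjusted p = 0.0949). The first lost its call without replicate 1 of untreated HCC827-Del or of untreated HCC827-Del-TM or replicate 3 of treated HCC827-Del-TM, with adjusted p of 0.0560 to 0.0599, and under median scaling (0.42, adjusted p = 0.136). The dimmer probe gave 0.52 without treated HCC827-Del-TM replicate 1 (adjusted p = 0.00370) and 0.24 without replicate 3 (adjusted p = 0.227), and it passed at 0.29 with the authors' deposited log2 values (adjusted p = 0.0420). Untreated lines differed by 0.07 and 0.17, neither past the test (limma adjusted p = 0.686 and 0.278).

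NME1 encodes a nucleoside diphosphate kinase, one of several that make triphosphates, and was the brightest member on the array. All 3 of its probes fell with treatment in HCC827-Del-TM, while 1 of the 3 rose in HCC827-Del. The brightest probe, ILMN_1741133, read 12.39, 12.46 and 12.32 in untreated and 12.53, 12.54 and 12.61 in treated HCC827-Del. In HCC827-Del-TM it read 12.27, 12.17 and 12.18 with DMSO and 11.61, 11.50 and 11.53 with the drugs. The 3 treated HCC827-Del-TM arrays lay below all 9 others.

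The brightest probe's treatment difference was −0.66 in HCC827-Del-TM (SE 0.0715, limma adjusted p = 6.26e-06), 1.58-fold lower, and 0.17 in HCC827-Del (limma adjusted p = 0.0632). In HCC827-Del it passed under 5 alternatives, among them the authors' deposited log2 values (0.18, adjusted p = 0.0108) and the mean over the NME1 probes (0.35, adjusted p = 0.00144). Probe ILMN_2414399, annotated to the same transcript, gave −0.64 in HCC827-Del-TM (limma adjusted p = 0.000845) and 0.20 in HCC827-Del (adjusted p = 0.198). Probe ILMN_1713875, annotated to another NME1 transcript and among the dimmest detected, at signals of 113 to 219, gave −0.39 (limma adjusted p = 0.0122) and 0.67 (adjusted p = 0.000243). Its fall in HCC827-Del-TM was no longer called without untreated HCC827-Del-TM replicate 3 (−0.30, adjusted p = 0.0601). The sizes on the 2 dimmer probes depended on the background correction. Without it ILMN_1713875 gave −0.15 in HCC827-Del-TM (adjusted p = 0.0433) and 0.34 in HCC827-Del (adjusted p = 7.34e-05), and ILMN_2414399 gave −0.34 in HCC827-Del-TM (adjusted p = 0.000226).

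The 3 NME1 probes differed in effect between lines by −0.83, −0.84 and −1.06 (limma adjusted p = 2.75e-05, 0.00182 and 0.000155). Between the treated groups NME1 was lower in HCC827-Del-TM by a log2 difference of −1.01 for the brightest probe (2.02-fold, limma adjusted p = 3.62e-08), −0.91 for ILMN_2414399 and −1.19 for ILMN_1713875. Without background correction the values of ILMN_2414399 and ILMN_1713875 were −0.51 and −0.54 between treated groups and −0.47 and −0.49 for the difference of effects, all still past the threshold. The untreated lines differed by −0.18 for the brightest probe (95% interval −0.34 to −0.03, limma adjusted p = 0.0639). This passed at nearly the same size under 4 alternatives, among them the authors' deposited log2 values (−0.18, adjusted p = 0.0150) and no background correction (−0.18, adjusted p = 0.0130). Those named gave nearly equal values for the members and are not separate checks. NME2, the neighbouring paralogue, has nearly the same coding sequence, so probes of the locus may share transcripts and the assignment to NME1 is uncertain. The brightest kept of 4 NME2 probes fell in both lines, by a log2 difference of −0.53 in HCC827-Del and −0.35 in HCC827-Del-TM. The 2 probes of the NME1-NME2 read-through gave −0.21 and −0.57 in HCC827-Del and −0.50 and −0.49 in HCC827-Del-TM. The second of these read-through probes was dim, at signals of 117 to 156.

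CDA encodes cytidine deaminase, which inactivates decitabine, and was the one tested member that rose with treatment in both lines. Its probe, ILMN_1714592, read 8.74, 8.47 and 8.57 in untreated and 9.12, 8.91 and 8.91 in treated HCC827-Del. It read 8.29, 8.30 and 8.24 in untreated and 9.09, 8.97 and 9.04 in treated HCC827-Del-TM. Treated and untreated arrays did not overlap in either line, and the untreated HCC827-Del-TM arrays were below all others. CDA rose by 0.39 in HCC827-Del (SE 0.0871, limma adjusted p = 0.00238), 1.31-fold, and by 0.75 in HCC827-Del-TM (limma adjusted p = 1.08e-05), 1.69-fold.

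Before treatment CDA was lower in HCC827-Del-TM, by a log2 difference of −0.32 (SE 0.0871, limma adjusted p = 0.0127), which was no longer called without untreated HCC827-Del replicate 1 (−0.24, adjusted p = 0.0595). After treatment the lines differed by 0.05 (95% interval −0.13 to 0.24, limma adjusted p = 0.614). The rise was larger in HCC827-Del-TM by 0.37 (SE 0.123, limma adjusted p = 0.0287). That call was lost when any of 6 arrays was left out (replicate 1 of untreated and 2 and 3 of treated HCC827-Del, replicate 3 of untreated and 1 and 3 of treated HCC827-Del-TM), with adjusted p of 0.0521 to 0.0714, and under median scaling (0.29, adjusted p = 0.185).

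**Figure D3:**
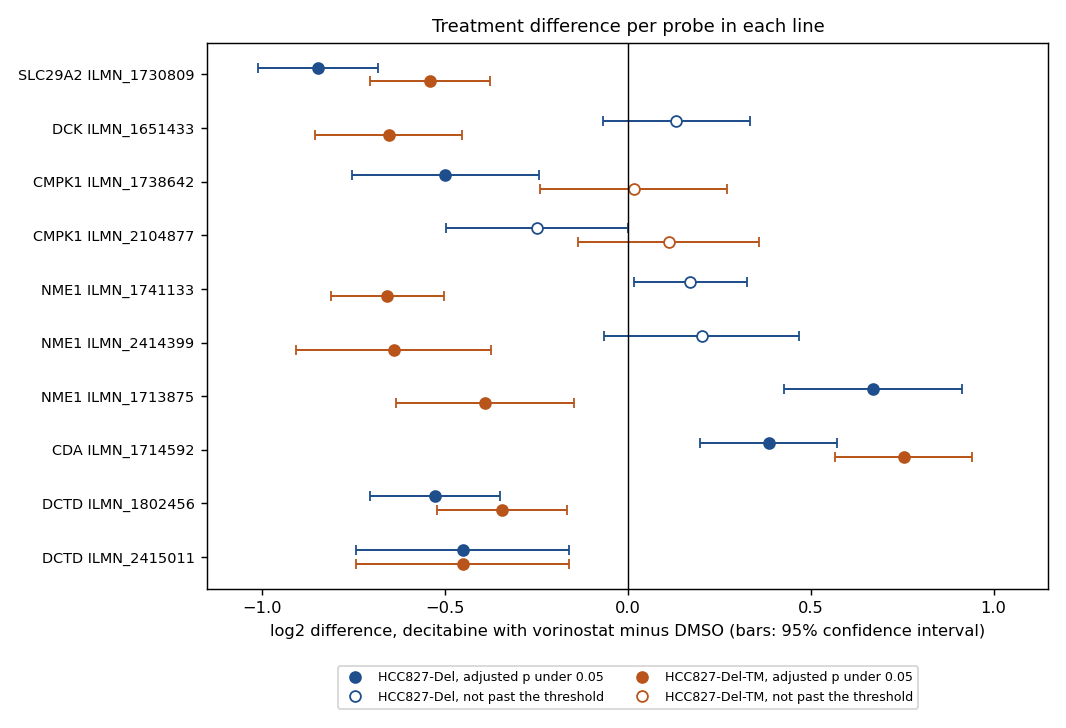
Treatment differences in log2 intensity (drugs minus DMSO) with 95% confidence intervals for the 10 detected member probes, HCC827-Del in blue and HCC827-Del-TM in orange; filled points have an adjusted p under 0.05. DCK and NME1 lie on opposite sides of 0 in the lines, although of their positive values in HCC827-Del only that of ILMN_1713875 passed, while CDA is positive and SLC29A2 and DCTD are negative in both.

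DCTD encodes deoxycytidylate deaminase, which converts the drug's monophosphate into a deoxyuridine form. It fell with treatment in both lines and on both of its probes. The brighter probe, ILMN_1802456, read 9.37, 9.30 and 9.26 in untreated and 8.68, 8.75 and 8.93 in treated HCC827-Del, and 9.35, 9.48 and 9.45 in untreated and 8.99, 9.14 and 9.12 in treated HCC827-Del-TM. Treated arrays lay below untreated ones in each line without overlap. The differences were −0.53 (SE 0.0825, limma adjusted p = 0.000138), 1.44-fold lower, and −0.34 (limma adjusted p = 0.00406), 1.27-fold lower.

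The dimmer DCTD probe, ILMN_2415011, gave −0.45 in each line (limma adjusted p = 0.0136 and 0.0152), with treated and untreated arrays overlapping in HCC827-Del-TM. In HCC827-Del this call was lost without treated replicate 1 (−0.40, adjusted p = 0.0539) and under median scaling (−0.36, adjusted p = 0.0813), and in HCC827-Del-TM without untreated replicate 2 (−0.38, adjusted p = 0.0641) or treated replicate 3 (−0.30, adjusted p = 0.0764). The difference of effects did not pass: 0.18 for the brighter probe (95% interval −0.07 to 0.43, limma adjusted p = 0.234) and 0.00 for the dimmer (95% interval −0.41 to 0.41). The treated lines differed by 0.30 on the brighter probe (limma adjusted p = 0.00635), which median scaling reduced to 0.15 (adjusted p = 0.340). On the dimmer probe they differed by 0.32 (adjusted p = 0.0551), a value that was 0.47 without treated HCC827-Del-TM replicate 3 (adjusted p = 0.00693), 0.16 without replicate 2 of that group (adjusted p = 0.274) and 0.11 under median scaling (adjusted p = 0.576). It passed at 0.23 with the authors' deposited log2 values (adjusted p = 0.0247). Untreated lines differed by 0.12 and 0.32 (limma adjusted p = 0.312 and 0.0863), and the second passed without treated HCC827-Del-TM replicate 2 (0.32, adjusted p = 0.0358) or 3 (0.32, adjusted p = 0.0468) and with the authors' deposited log2 values (0.24, adjusted p = 0.0281).

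Counted over the 10 tested probes, 6 passed in HCC827-Del (2 higher, 4 lower), where 48.3% of all probes tested passed. In HCC827-Del-TM 8 passed (1 higher, 7 lower), against 43.2% of all probes. Between untreated lines 2 passed, against 33.8%, between treated lines 7, against 60.7%, and for the difference of effects 7, against 39.9%. Probes of 1 gene share their target, so these are 6 genes and not 10 independent results. No member probe reached a log2 difference of 1 with treatment. That size was reached with an adjusted p under 0.05 by 945 of all probes in HCC827-Del (6.03%) and 734 in HCC827-Del-TM (4.69%). With 10 member probes, shares this low make the absence uninformative. Median scaling in place of quantile normalization moved the median of all probes between the treated groups from −0.01 to −0.17, and the share of higher probes among those called from 47.9% to 31.0%. It moved that share from 48.0% to 62.2% for treatment in HCC827-Del and from 48.5% to 32.6% for the difference of effects.

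Across the 12 arrays, the gene most like each member by Pearson correlation among 11807 others was FOXN2 for DCK (r = 0.925), EDEM2 for CDA (0.980), PMF1 for DCTD (0.981), SNRPA for SLC29A2 (0.987), SMURF1 for CMPK1 (0.947) and CDC20 for NME1 (0.993). The next were SOCS2 (0.919), LGMN (0.966), MGST1 (0.979), MACROD1 (0.987), VWA1 (0.947) and ARHGAP27P1 (0.990), in the same order. The 12 arrays form 4 groups, so these values mainly describe likeness of group means. Probes of the same gene correlated at 0.840 for DCTD, 0.810 for CMPK1 and 0.795 to 0.921 for NME1.

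The other genes of the route were read by the brightest kept probe per gene, over 6 lists of 60 symbols, with a probe for 57 and a tested gene for 44. With treatment in HCC827-Del, 9 of the 44 rose and 16 fell, where 24.4% of all genes tested rose and 25.8% fell. In HCC827-Del-TM 10 rose and 19 fell, against 21.2% and 23.5% of all genes. Between untreated lines 9 were higher and 11 lower in HCC827-Del-TM, against 15.6% and 19.4%. The median over the 44 genes was −0.15, −0.18 and 0.01 in these comparisons, and over all genes −0.03, −0.01 and −0.03.

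Among 6 other nucleoside transporters and exporters, 1 rose and 3 fell in HCC827-Del, and 2 rose and 1 fell in HCC827-Del-TM. SLC29A4, a monoamine and adenosine carrier of the equilibrative family, rose by 1.38 in HCC827-Del and 0.44 in HCC827-Del-TM (limma adjusted p = 4.49e-07 and 0.00793). SLC29A3, its lysosomal relative, fell in both lines, with differences of −0.92 and −0.46 (limma adjusted p = 6.09e-07 and 0.000428), and was already lower in untreated HCC827-Del-TM by a difference of −1.06, while SLC29A4 was 0.44 higher there. SLC28A3, a concentrative nucleoside transporter, fell in HCC827-Del (−0.69, limma adjusted p = 0.000185) and differed by 0.07 in HCC827-Del-TM (adjusted p = 0.644). ABCC5, a nucleotide exporter, rose in HCC827-Del-TM by 0.28 (limma adjusted p = 0.0273) and was lower in that line when untreated (−0.38, adjusted p = 0.00689).

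Of 10 other nucleoside and nucleotide kinases, 1 rose and 3 fell in HCC827-Del, and 2 rose and 5 fell in HCC827-Del-TM. NME4, the mitochondrial nucleoside diphosphate kinase, fell in both lines, with differences of −1.46 and −0.90 (limma adjusted p = 6.95e-09 and 1.27e-06), and was 0.85 higher in untreated HCC827-Del-TM. NME3, another of that family, gave −0.72 and −0.64. TK1, the S-phase thymidine kinase, fell in HCC827-Del-TM (−0.65, limma adjusted p = 5.96e-06) and differed by −0.06 in HCC827-Del (adjusted p = 0.499). ADK, adenosine kinase, and NME6 were lower in untreated HCC827-Del-TM (−0.59 and −0.36, limma adjusted p = 0.00012 and 0.00381).

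Of 9 nucleotidases and nucleotide hydrolases, 1 rose and 3 fell in HCC827-Del, and 2 rose and 3 fell in HCC827-Del-TM. DUT, which hydrolyses dUTP, and DCTPP1, which hydrolyses dCTP and its analogues, fell in HCC827-Del-TM, with differences of −0.88 and −0.57 (limma adjusted p = 5.50e-06 and 3.70e-05). In HCC827-Del DCTPP1 rose by 0.21 (limma adjusted p = 0.0353) and DUT differed by −0.02 (adjusted p = 0.900). The 5'-nucleotidase genes NT5C3B, NT5C and NT5C2 fell in HCC827-Del, with differences of −0.50, −0.39 and −0.38, and NT5C also fell in HCC827-Del-TM (−0.25, limma adjusted p = 0.0233). NT5C3A rose by 0.30 in HCC827-Del-TM (limma adjusted p = 0.0184). Between untreated lines NT5C3A was 0.48 higher and NT5C3B lower (−0.38) in HCC827-Del-TM. NT5M, a mitochondrial nucleotidase, was undetected on the 3 untreated HCC827-Del-TM arrays and at least 1.41-fold higher in untreated HCC827-Del (limma adjusted p = 0.00776), measured against the higher of each array's lowest detected value and the probe's own.

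The list for pyrimidine salvage and breakdown also held the purine enzymes ADA and PNP. Of its 6 tested genes, 2 rose and 3 fell in HCC827-Del, and 4 rose and 1 fell in HCC827-Del-TM. UPP1, uridine phosphorylase, rose by 1.53 in HCC827-Del (limma adjusted p = 3.45e-09) and differed by 0.20 in HCC827-Del-TM (adjusted p = 0.0556). DPYD, which breaks down uracil and thymine, fell in HCC827-Del (−0.82) and rose in HCC827-Del-TM (0.35), and TYMP, thymidine phosphorylase, likewise (−0.75 and 0.28). All 4 of these values passed (limma adjusted p = 2.44e-05, 0.0167, 3.72e-06 and 0.0104). ADA, adenosine deaminase, also fell in HCC827-Del (−0.36) and rose in HCC827-Del-TM (0.34, limma adjusted p = 0.00361 and 0.00548). UPRT, PNP (purine nucleoside phosphorylase) and DPYD were higher in untreated HCC827-Del-TM, by 0.54, 0.51 and 0.33.

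The 10 genes of dCTP and dTTP supply had 2 higher and 4 lower in HCC827-Del (median −0.07) and 0 higher and 7 lower in HCC827-Del-TM (median −0.97). In HCC827-Del-TM the ribonucleotide reductase subunit RRM2 fell with a difference of −1.79, the thymidylate synthase TYMS with −1.72 and the CTP synthase CTPS1 with −1.63 (limma adjusted p = 2.52e-07, 6.63e-09 and 3.35e-08). In HCC827-Del RRM2 differed by −0.09 (adjusted p = 0.622), TYMS fell (−0.28, adjusted p = 0.0215) and CTPS1 rose by 0.52 (limma adjusted p = 0.000835). The second CTP synthase, CTPS2, fell in HCC827-Del (−0.58, limma adjusted p = 6.07e-05) and differed by −0.13 in HCC827-Del-TM (adjusted p = 0.218). CAD, the entry enzyme of pyrimidine synthesis, fell in both lines (−0.89 and −1.05, limma adjusted p = 5.63e-05 and 1.59e-05). Between untreated lines CAD and RRM2B were lower in HCC827-Del-TM (−0.75 and −0.33) and RRM2 was 0.42 higher (limma adjusted p = 0.000454, 0.024 and 0.0322).

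Of 5 genes listed as DNA methyltransferases and partner, the drug's targets among them, all 5 had a probe. Only 3 were detected well enough to be tested. DNMT1, the maintenance methyltransferase, fell in HCC827-Del-TM (−0.88, limma adjusted p = 8.61e-07) and differed by −0.06 in HCC827-Del (adjusted p = 0.539); between untreated lines it was lower in HCC827-Del-TM (−0.23, adjusted p = 0.0348). UHRF1, which brings DNMT1 to newly copied DNA, rose by 0.55 in HCC827-Del and fell in HCC827-Del-TM (−1.55, limma adjusted p = 6.89e-09). DNMT3B, a de novo methyltransferase, rose by 0.73 in HCC827-Del (limma adjusted p = 4.18e-06) and differed by 0.08 in HCC827-Del-TM (adjusted p = 0.412). EGFR, the gene for which the labels give the lines different alleles, differed by −0.01 between untreated lines (limma adjusted p = 0.927), and the array does not read its alleles.

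**Figure D4:**
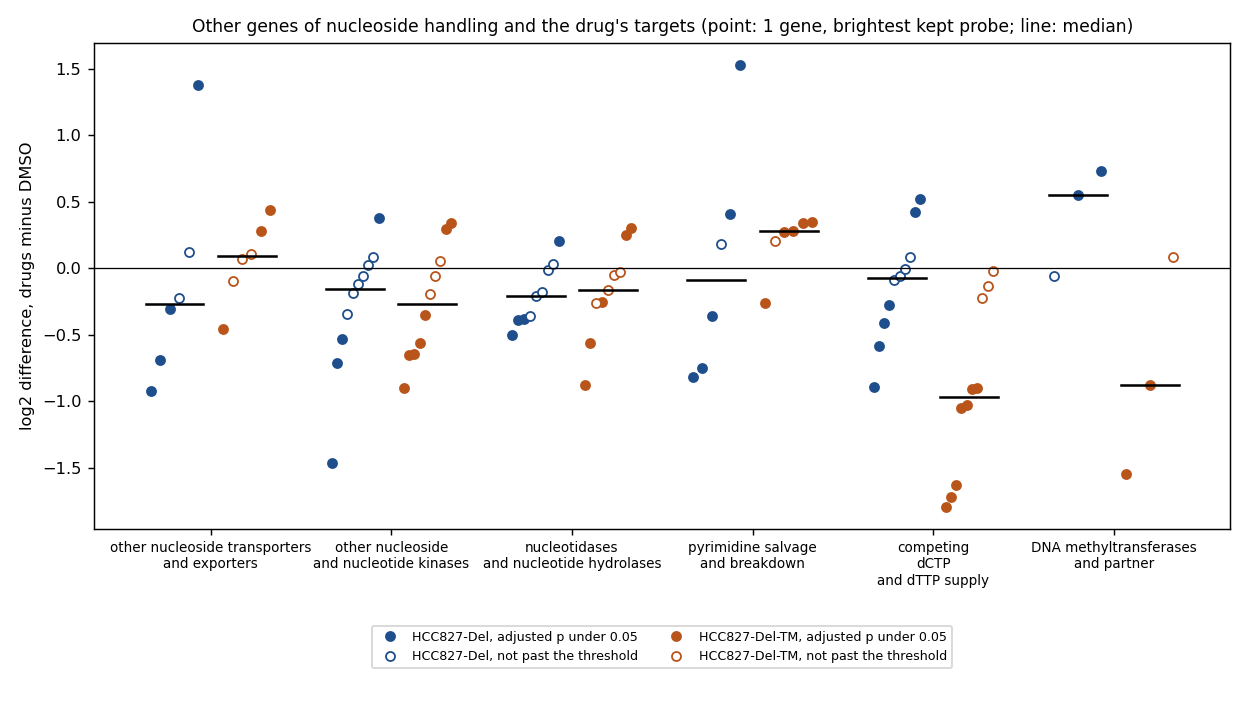
Treatment differences in log2 intensity (drugs minus DMSO) of the 44 tested genes in 6 lists around decitabine handling, HCC827-Del in blue and HCC827-Del-TM in orange, 1 point per gene, with filled points at an adjusted p under 0.05 and a line at the median. The dCTP and dTTP supply genes have a median of −0.07 in HCC827-Del and −0.97 in HCC827-Del-TM.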

How the data were processed

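RNA from 12 cultures was labelled as biotinylated cRNA and hybridised to 1-colour bead arrays, per the labels' protocols. The authors deposited signal intensity and a detection p-value per probe, neither background-subtracted nor normalized as the values show, and a table of log2 values. How the authors normalized the deposited log2 values is not given in the sources at hand. Member results from them nearly equalled those of quantile normalization without background correction. For NME1 probe ILMN_1713875 with treatment in HCC827-Del the differences were 0.333 and 0.336. Those alternatives are therefore not separate checks. The deposited values correlated at 0.981 with the values computed here on every array, over all probes, which says little about single probes or arrays. Probe genes came from the platform annotation: 30113 of 47323 probes had 1 symbol, 8 several and 17202 none.

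Intensities were background-corrected from the detection p-values (nec, offset 16), quantile-normalized and put on the log2 scale with limma 3.58.1 in R 4.3.3. The 15667 probes with 1 symbol and a detection p below 0.01 on at least 3 of 12 arrays (11808 genes) were fitted with 1 coefficient per group and eBayes. Benjamini-Hochberg adjustment ran over all probes within each of 5 comparisons, with a threshold of 0.05. The median standard error was 0.101, and 3 arrays per group limit the precision. Replicate arrays correlated at 0.994 to 0.996.

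The members, gene lists and alternatives were chosen with earlier results of these data known. Named were all members, and per list up to 3 called genes with the largest differences for treatment in each line and between untreated lines, with EGFR and the DNA methyltransferase genes, and the 2 genes most correlated with each member. Values in the other line are given beside some of them. Same-numbered replicates did not deviate together (correlations −0.02 to 0.05 over 18 pairs), so the numbers were not used as pairs. Alternatives were the background correction, the normalization, the authors' values, the detection filter, the treatment of several probes per gene, the variance model, array weights, the samples in the fit, a replicate block, thresholds and leaving out each array. The fit was also run on simulated data. Those had independent noise and far fewer changed probes than were called here, and the normalization was not part of that run.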

Additional observations from a re-analysis of the deposited data

Results flagged for a closer look

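The difference of treatment effects between the lines, HCC827-Del-TM minus HCC827-Del, passed the limma interaction test for 7 of 10 member probes, from 5 members. Of all probes tested, 39.9% passed. DCK ILMN_1651433 gave −0.79 on the log2 scale (adjusted p = 0.000392). The NME1 probes ILMN_1741133, ILMN_2414399 and ILMN_1713875 gave −0.83, −0.84 and −1.06 (adjusted p = 2.75e-05, 0.00182 and 0.000155). CDA ILMN_1714592 gave 0.37 (adjusted p = 0.0287), SLC29A2 ILMN_1730809 gave 0.31 (adjusted p = 0.0372) and CMPK1 ILMN_1738642 gave 0.51 (adjusted p = 0.0263), and each of these 3 lost its call when some single arrays were left out, as given above.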

How the results depend on the processing

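Over 50 probe results and the alternatives other than stricter thresholds, 1132 of 1200 values kept their side of the threshold, 32 lost the call and 36 gained it. Of the 1132, 1116 also kept their sign, and the 16 that changed it were uncalled: 11 for the dimmer DCTD probe's difference of effects, 3 and 1 for CMPK1 ILMN_1738642 and ILMN_2104877 in HCC827-Del-TM and 1 for CDA between treated lines. No called value changed sign. Of 30 called results, 21 stayed called in all of these. With a log2 difference of at least 1 also required, in the order treatment in HCC827-Del, treatment in HCC827-Del-TM, untreated lines, treated lines and difference of effects, 945, 734, 552, 1835 and 1149 probes were called (7560, 6771, 5293, 9510 and 6246 without it), 768, 591, 437, 1453 and 936 genes, and 0, 0, 0, 1 and 0 of the member genes. Of the 6 member genes tested, 4, 5, 2, 4 and 5 were otherwise called. Of all probes tested, 48.3%, 43.2%, 33.8%, 60.7% and 39.9% passed in the same comparisons. The probes called with that size were 6.03%, 4.69%, 3.52%, 11.7% and 7.33% of all tested. At an adjusted p under 0.01, 3418 probes, 2698 genes and 1 of the 6 member genes differed between untreated lines. At that threshold 4229 of 15667 probes and 2 of the 6 member genes differed in effect. Median scaling also left 2 of the 6 member genes with a difference of effects, beside 5111 of 15667 probes. Leaving out 1 array at a time gave 1 to 2 of the 6 member genes between untreated lines, beside 4470 to 5270 probes. It gave 3 to 4 of the 6 with a difference of effects, beside 5306 to 5921 probes. Beyond the smaller number of samples the cause was not tested. With the replicate number as a block, 7492, 6721, 5166, 9461 and 6111 probes were called; SLC29A2 lost its difference of effects (0.31, adjusted p = 0.054), the dimmer DCTD probe gained a call between untreated and between treated lines (adjusted p = 0.0298 and 0.0159), and no other member call changed. By their own number 7 of 12 arrays correlated best, a count from the data and not the design. Same-numbered arrays correlated at −0.02 to 0.05 and those of unlike number at up to 0.03. The count that chance would give was not computed. Signals near background limit SLC29A1, SAMHD1 and the second DCK probe.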
